A study of Mus musculus with 10 samples.

Results

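The 7 genes Hmgcs1, Idi1, Fdft1, Sqle, Lss, Dhcr7 and Insig1 were followed in epididymal white adipose tissue (eWAT) of 10 mice. They were chosen by name, as all non-control probes of the array that carry one of these gene symbols, which gave 9 probes of 55681 and 7 genes of the 34797 gene names in the files. Apart from Insig1, the genes encode enzymes of cholesterol synthesis while Insig1 encodes a brake on the pathway; none of them is an uptake receptor, so uptake was read from the other genes of the pathway. A probe was called expressed when its Cy5 signal was well above background on at least 5 arrays, and 8 of the 9 probes were, with at least 1 probe for each of the 7 genes.

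The mice were males of the C57BL/6JOlaHsd strain by the protocol and C57BL/6J by the sample label, 9 weeks old at the start. They were fed a low fat diet for 3 weeks and then a high fat diet (HFD) for 12 weeks at 29°C, which is thermoneutral for mice, and all were injected daily for 5 days with 100 mg/kg of the iron chelator desferrioxamine (DFO) and killed after 2 h without food. Cy5 carried the RNA of 1 mouse on each array and Cy3 a pool of all the samples of the wider study, its control mice included. A log2 ratio is therefore the level in a mouse over that pool; since dyes were not swapped and no array of an untreated mouse was analysed here, it was not tested against 0, and the comparisons below are between mice.

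Cholesterol is built from acetyl-CoA in the endoplasmic reticulum. HMG-CoA synthase (Hmgcs1) stands near the start of the pathway, Idi1 isomerises its isoprene unit, Fdft1 joins farnesyl units into squalene, Sqle and Lss turn squalene into lanosterol, and Dhcr7 carries out a last reduction. When sterols are low, the protein SCAP brings SREBP transcription factors (from Srebf1 and Srebf2) to the Golgi, where proteases release them to switch on these genes. INSIG1 holds SCAP back when sterols are high. In adipose tissue, adipocytes store much free cholesterol with their lipid droplets, and macrophages take up cholesterol and store it as esters.

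Fdft1 has 2 expressed probes, whose values opposed each other over the mice, so the positions of both and the sequence of the brighter probe are shown. The brighter probe lies on chromosome 14 of mm9, minus strand, where its 60 bases cover chr14:63765750-63769990, a span of 4241 bases, so it crosses an exon junction. The other probe covers 60 contiguous bases at chr14:63764562-63764621, further downstream in the transcript. The array's annotation ties the brighter probe to 2 Ensembl transcripts and the other to 1.
Fdft1, exon-junction probe: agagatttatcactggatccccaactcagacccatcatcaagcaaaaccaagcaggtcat

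Over all the mice with loess scaling, Hmgcs1 and Dhcr7 were related in opposite directions (r = -0.714) and Insig1 was related to neither. This opposition depended on the setting. Under median centring r was -0.334 and the pair was not related. Within the larger set of mice described below r was -0.342, and with the first principal component as a covariate the partial r was 0.632. For these genes, the 250 bases before their RefSeq start sites (GRCm38.p6, plus strand) are shown. Capitals mark the matches to 4 motifs searched on both strands. These were the sterol regulatory element TCACNCCAC bound by SREBP, the NF-Y box CCAAT, the Sp1 box GGGCGG and the E-box CACGTG. The windows are chr13:119690101-119690350 for Hmgcs1, chr7:143829964-143830213 for the most downstream of the 3 Dhcr7 start sites, and chr5:28071162-28071411 for Insig1.
Hmgcs1: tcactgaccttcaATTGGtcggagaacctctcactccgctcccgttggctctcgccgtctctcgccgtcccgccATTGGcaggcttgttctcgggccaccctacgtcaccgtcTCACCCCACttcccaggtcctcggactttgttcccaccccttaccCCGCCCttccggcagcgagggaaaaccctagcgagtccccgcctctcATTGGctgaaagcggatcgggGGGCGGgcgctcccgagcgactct
Dhcr7: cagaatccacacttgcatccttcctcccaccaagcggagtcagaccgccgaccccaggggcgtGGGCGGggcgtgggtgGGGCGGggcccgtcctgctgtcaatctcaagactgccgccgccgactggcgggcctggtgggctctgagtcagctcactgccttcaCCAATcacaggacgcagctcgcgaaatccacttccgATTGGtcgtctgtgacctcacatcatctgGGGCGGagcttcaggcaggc
Insig1: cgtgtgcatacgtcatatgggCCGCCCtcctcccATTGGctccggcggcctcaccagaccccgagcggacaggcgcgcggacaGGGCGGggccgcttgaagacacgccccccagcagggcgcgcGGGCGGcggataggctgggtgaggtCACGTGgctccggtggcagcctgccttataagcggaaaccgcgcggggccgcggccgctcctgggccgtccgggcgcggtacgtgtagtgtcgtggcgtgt

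The promoter table held 5 of the 7 genes with 7 windows of 300 bases, namely Hmgcs1, Idi1, Dhcr7, Insig1 and Lss. The sterol regulatory element, found in 1.24% of 32851 promoters, was matched in 1 of these 5 genes, Hmgcs1, as TCACCCCAC 137 bases before its start site. The NF-Y box was matched in 5 of 5 genes (37.4% of all promoters) and so was the Sp1 box (35.7% of all promoters). The E-box was matched in 2 genes, Insig1 and another of the Dhcr7 windows (7.15% of all promoters). A gene counted when any of its windows matched, whereas the percentages are of single windows, so the 2 are not like for like. The Dhcr7 windows that start at 143822917 and 143823149 held no NF-Y box, and the latter held no Sp1 box. A match is a description of the letters and was not related to binding.

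Before the genes themselves, the 10 arrays were compared over all expressed probes. The first principal component of the log2 ratios held 75.1% of the variance and set mice 4, 5, 6 and 7 (scores from 38.9 to 62.0) apart from the other 6 mice (-50.6 to -18.9), with a gap of 0.513 of the range. All 10 adipocyte markers were expressed yet their mean log2 ratio was -2.37 to -1.38 in mice 4 to 7 and -0.20 to 0.63 in the others. The 9 macrophage markers, all expressed, had a mean of 0.74 to 1.01 in mice 4 to 7 and -1.23 to -0.10 in the others. In RNA of whole tissue, fewer cells of a type and less RNA per cell cannot be told apart. Since these 4 mice were set apart by all expressed probes, a higher or lower level in them is not by itself particular to a gene. The share of all probes that divided them from the others was not counted. The 4 mice lay on 3 of the 5 slides, and slide 3 held only mice 5 and 6, so slide and this division overlap in part. No probe was called as different between slides (limma's moderated F test, 0 of 27811 after Benjamini-Hochberg adjustment, 1142 at an unadjusted p under 0.05). With 2 arrays per slide, this does not show that the slides were alike. Because mice 4 to 7 stand apart, the results on pairs of genes are given over 10 mice and again over the 6 mice.

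Hmgcs1 makes HMG-CoA and was the earliest enzyme among the 7 genes. Its expressed probe had a log2 ratio from -1.10 in mouse 7 through a median of -0.09 to 0.32 in mouse 9, a 2.67-fold range (probe at chr13_random:114793-114852, minus strand). Mice 7, 4 and 5 were the lowest, at -1.10, -0.82 and -0.70, and mice 3, 8 and 9 the highest, at 0.30, 0.25 and 0.32. Mouse 6, at -0.17, lay among the other 6 mice. A further Hmgcs1 probe was not well above background on any array in Cy5 and was left out.

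Idi1 supplies the isoprene unit. Its log2 ratio ran from -0.94 in mouse 4 through a median of -0.38 to 0.23 in mouse 6, a 2.25-fold range (probe at chr13:8891524-8891583, plus strand), and it was below 0 in all mice but mouse 6. Its ends were therefore held by 2 of the 4 mice that stand apart, and the order of the mice was another than for Hmgcs1.

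Fdft1, squalene synthase, gave a different picture with each probe. With the exon-junction probe the log2 ratio ran from -0.42 in mouse 5 through a median of -0.03 to 0.40 in mouse 8, and mice 5, 7 and 4 were the lowest. With the second probe it ran from -0.31 in mouse 10 through a median of -0.04 to 0.59 in mouse 5. Mice 4 to 7 were at 0.43 to 0.59 and the others at -0.31 to 0.04. The probes had an r of -0.856 and a rho of -0.879 over the 10 mice and an r of -0.759 over the 6 mice. The second probe was dimmer, with a mean Cy5 signal of 55.4 to 160.0 before background subtraction, and was well above background on 9 arrays in Cy5 and 7 in Cy3. The exon-junction probe was well above background on all 10 in both dyes. No direction between mice is therefore given for the gene Fdft1 as a whole, and below it stands for its exon-junction probe.

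Sqle, squalene epoxidase, had the widest range of the 7 genes. Its log2 ratio ran from -0.94 in mouse 9 through a median of -0.29 to 0.93 in mouse 6, which is 3.64-fold (probe at chr15:59162688-59162747, plus strand). Mice 4, 5, 6 and 7 were at 0.76, 0.46, 0.93 and 0.37, mouse 2 at -0.07 and the other 5 mice between -0.94 and -0.52. The difference was also present within the 2 slides that held mice of both kinds: mouse 3 was at -0.85 and mouse 4 at 0.76 on the same slide, and mouse 7 at 0.37 and mouse 8 at -0.52.

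Lss, lanosterol synthase, had the narrowest range among the expressed probes. It ran from -0.31 in mouse 10 through a median of -0.04 to 0.28 in mouse 6, or 1.5-fold (probe at chr10:76015992-76016051, plus strand). The remaining 8 mice lay between -0.09 and 0.08.

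Dhcr7 makes cholesterol from 7-dehydrocholesterol. Its log2 ratio ran from -0.49 in mouse 10 through a median of -0.11 to 0.45 in mouse 6, a 1.92-fold range (probe at chr7:151033874-151033933, plus strand). As for Sqle, mice 4 to 7 were the highest (0.35, 0.24, 0.45 and 0.20), with the others at -0.49 to -0.11. Within slides, mouse 3 was at -0.15 and mouse 4 at 0.35, and mouse 7 was at 0.20 and mouse 8 at -0.30.

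Insig1, itself a target of SREBP and its brake, ran from -0.69 in mouse 4 through a median of -0.19 to 0.18 in mouse 1, a 1.83-fold range (probe at chr5:28404246-28404305, plus strand). Mice 4, 10 and 7 lay together at -0.69, -0.69 and -0.67, apart from the other 7 mice (-0.27 to 0.18) by a gap of 0.46 of the range. This division was not that of mice 4 to 7, since mice 5 and 6 lay with the 7 and mouse 10 with the 3.

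**Figure D1:**
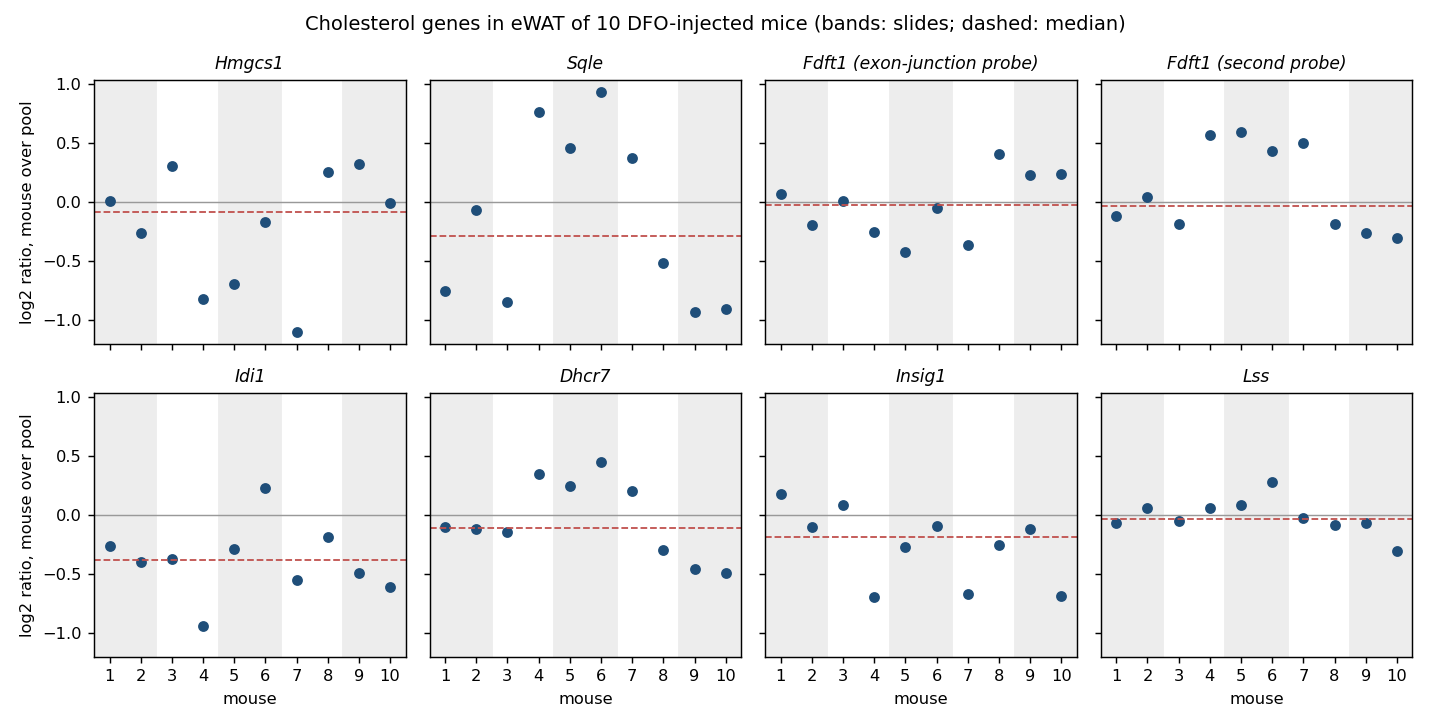
Log2 ratio of mouse RNA (Cy5) over the common pool (Cy3) for the 8 expressed probes of the 7 genes; each point is 1 of the 10 mice, grey and white bands are the slides and the dashed line is the median. Mice 4 to 7 are the 4 highest for Sqle, Dhcr7 and the second Fdft1 probe, whereas mice 4, 5 and 7 are the 3 lowest for Hmgcs1 and the exon-junction probe of Fdft1.

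To see whether these ranges exceeded what the arrays alone give, the SD of log2 Cy5 over the 10 arrays was set against the SD of log2 Cy3 of the same probe, which measured the same pool each time. Of the 8 probes, 6 varied more in Cy5 than in Cy3 (Pitman-Morgan test for paired variances, Benjamini-Hochberg adjusted over 25049 probes), where 59.6% of all tested probes did so. Sqle had an SD of 0.776 in Cy5 and 0.102 in Cy3, a ratio of 7.63 (adjusted p = 1.91e-05). Hmgcs1 had a ratio of 6.75 (adjusted p = 2.54e-06) and Dhcr7 one of 6.11 (adjusted p = 6.22e-07). Insig1 followed with a ratio of 4.95 (adjusted p = 0.000584), and the Fdft1 probes with 3.76 and 3.46 (adjusted p = 0.000708 and 0.00446). Idi1 (SD of 0.232 in Cy5 and 0.155 in Cy3, adjusted p = 0.326) and Lss (ratio of 1.70, adjusted p = 0.156) were not past the threshold, so their order of mice is not separated from the spread of the arrays. Without normalization between arrays the count was 2 of 8, and over the 6 mice alone it was also 2 of 8.

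**Figure D2:**
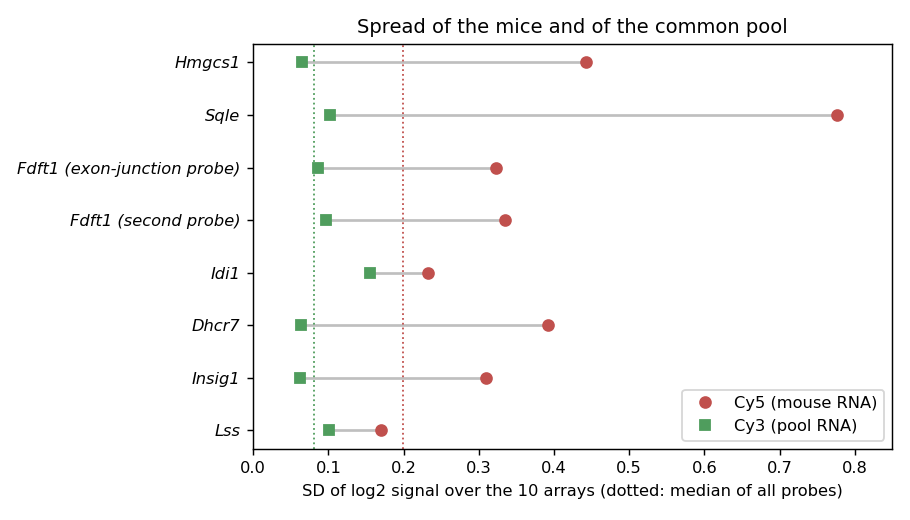
SD of log2 signal over the 10 arrays for the 8 expressed probes, in Cy5 (RNA of 1 mouse per array, circles) and in Cy3 (the same pool on every array, squares); dotted lines are the medians over all tested probes, 0.199 in Cy5 and 0.0812 in Cy3. The distance between the marks is widest for Sqle and narrow for Idi1 and Lss.

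Genes controlled by SREBP are known to move together, and the 21 pairs of the 7 genes were therefore compared over mice. A pair was called related when limma's regression of either gene on the other, adjusted over all other expressed probes, passed an adjusted p of 0.05 in both directions. Of the 21 pairs, 6 were related, and they joined 4 genes into opposing sets: Sqle with Dhcr7, Hmgcs1 with Fdft1 (exon-junction probe), and each of the former against each of the latter. The opposition depended on the scaling: with arrays centred on their median in place of loess, Sqle with Dhcr7 (r = 0.977) and Hmgcs1 with Fdft1 (r = 0.893) were still related, while the 4 opposing pairs had r between -0.334 and -0.111 and were not. With slide as a block 1 of the 21 pairs, Hmgcs1 with Fdft1, was related. The shares of all expressed probes related to these genes were large as well. They were 21.9% in the same and 18.7% in the opposite direction for Hmgcs1, 21.9% and 23.8% for Sqle, 18.8% and 15.9% for Fdft1, and 21.1% and 23.8% for Dhcr7. Idi1, Insig1 and Lss had no related probe in either direction (0% each way; at an unadjusted p under 0.05 there were 285, 1505 and 7698 of 27810).

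Sqle and Dhcr7 rose and fell together, with an r of 0.936 (permutation p = 0.00012) and a rho of 0.927 (permutation p = 0.00027) over 10 mice, limma adjusted p = 0.000191 and 7.83e-05 for the regressions each way. Without the 2 mice farthest from the median of Sqle r was 0.874. Over the 6 mice r was 0.532 (exact permutation p = 0.274) and rho 0.657 (exact permutation p = 0.175), and the relation was not past the threshold there (limma adjusted p = 0.568 and 0.542).

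Hmgcs1 and Sqle opposed each other, with an r of -0.761 (permutation p = 0.0133) and a rho of -0.758 (permutation p = 0.0153), limma adjusted p = 0.00886 and 0.00747; under median centring r was -0.291 and the pair was not related. Without the 2 mice farthest from the median of Hmgcs1 r was -0.724. Over the 6 mice r was -0.673 (exact permutation p = 0.108) and rho -0.600 (exact permutation p = 0.242), and it turned to 0.408 when 2 of these were left out. Hmgcs1 and Dhcr7 had an r of -0.714 and a rho of -0.673 over 10 mice (permutation p = 0.0231 and 0.0381) and an r of -0.342 over the 6 (exact permutation p = 0.475), with limma adjusted p = 0.0223 and 0.0153 over the 10 mice; under median centring r was -0.334 and the pair was not related.

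Hmgcs1 and the exon-junction probe of Fdft1 had an r of 0.858 (permutation p = 0.00183) and a rho of 0.806 (permutation p = 0.00741), limma adjusted p = 0.00309 and 0.00432. Over the 6 mice r was 0.627 (exact permutation p = 0.210) and rho 0.257 (exact permutation p = 0.658). The same probe opposed Dhcr7 (r = -0.764, permutation p = 0.0126; limma adjusted p = 0.0159 and 0.0107) and Sqle (r = -0.720, permutation p = 0.0242; limma adjusted p = 0.0195 and 0.0213) over 10 mice, with r of -0.683 and -0.507 over the 6 (exact permutation p = 0.133 and 0.324). With the second Fdft1 probe in place of the first the sign turned to an r of -0.875, and Fdft1 then went with Sqle (r = 0.947) and Dhcr7 (r = 0.933), so the place of Fdft1 depends on the probe. The second probe divided mice 4 to 7 from the others by a gap of 0.431 of the range. Its r values therefore join 2 separate sets of mice, and values over the 6 mice are not given for these pairs. With the first principal component as a covariate 0 of the 21 pairs were related, and over the 6 mice 0 were. Few probes of the whole array were called in these fits. Per gene, 0 to 1 of about 27810 probes were called with the component and 0 to 15 over the 6 mice. These counts of 0 therefore do not show on which mice the relations rest.

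Lss came closest to Dhcr7 and Sqle without being called. Its r was 0.827 with Dhcr7 (permutation p = 0.00098) and 0.800 with Sqle (permutation p = 0.00097), and it passed as a response to these genes (limma adjusted p = 0.0135 and 0.0178) but not as the predictor (limma adjusted p = 0.144 for both). Over the 6 mice r was 0.723 with Dhcr7 (exact permutation p = 0.025; rho 0.771, exact permutation p = 0.103) and 0.643 with Sqle (exact permutation p = 0.196). Against the exon-junction probe of Fdft1, Lss had a rho of -0.818 over 10 mice (permutation p = 0.00577). Over the 6 mice this rho was -0.943 (exact permutation p = 0.0167). The r of this pair was weaker, at -0.543 (permutation p = 0.102) and -0.593 (exact permutation p = 0.181), and it was not called. Idi1 had an r between 0.114 and 0.486 with the genes other than Insig1. Since Insig1 divided the mice, its pairs were read within its set of 7 mice. There r lay between -0.433 and 0.364 and the exact permutation p-values between 0.326 and 0.860. Over the 6 mice, Insig1 had an r of 0.777 with Dhcr7 (exact permutation p = 0.0542) and a rho of 0.886 (exact permutation p = 0.0333). Its r was 0.770 with Lss (exact permutation p = 0.104), 0.588 with Idi1, 0.136 with Hmgcs1, 0.125 with Sqle and -0.456 with Fdft1. No Insig1 pair was called there, and these 6 mice include mouse 10, which lay in the low set of Insig1.

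**Figure D3:**
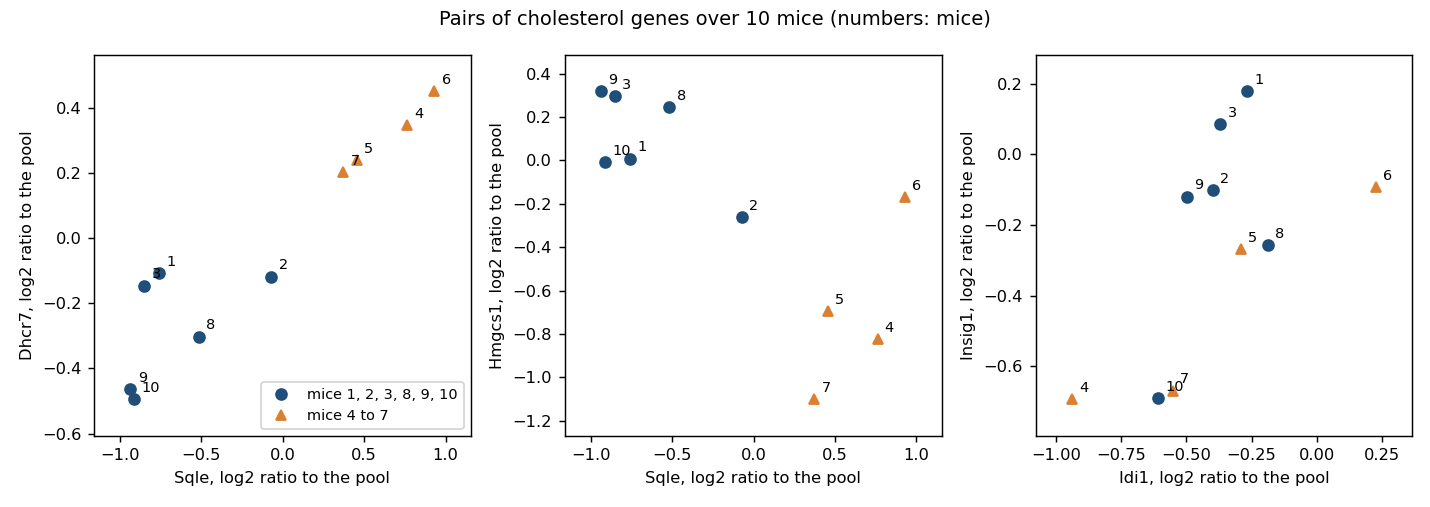
Log2 ratios to the pool of 3 pairs of genes; each numbered point is a mouse, triangles are mice 4 to 7 and circles the other 6. Sqle and Dhcr7 rise together, Sqle and Hmgcs1 run against each other with mice 4 to 7 at the right, and in the panel of Idi1 and Insig1 mice 4, 7 and 10 lie at the lower left.

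The other genes of the pathway were then compared with the 7 genes over the 10 mice. Of the 287 relations of pathway genes with the 7 genes 108 passed over the 10 mice with loess. Over the 6 mice 0 passed, and 0 with the first principal component as a covariate, but few probes of the whole array were called in those fits. The relations below are those of all 10 mice with loess, mice 4 to 7 included. Under median centring 76 passed, and their directions are not given gene by gene. Each gene stands for its brightest expressed probe, and its further probes are not given. Of 15 further synthesis enzymes, all expressed, 5 were related to Sqle in the same direction and 6 in the opposite direction, where 21.9% and 23.8% of all expressed probes were. Those with Sqle were Msmo1 (r = 0.985, adjusted p = 6.04e-05), Cyp51 (r = 0.931, adjusted p = 0.000157), Hsd17b7 (r = 0.868, adjusted p = 0.00216), Fdps and Mvd. Msmo1, Cyp51 and Hsd17b7 act in removing methyl groups from lanosterol and its products, and Fdps makes the farnesyl unit that Fdft1 uses. Those against Sqle were Lbr (r = -0.845), Pmvk (r = -0.812), Ggps1, Sc5d, Mvk and Acat2. Mvk and Pmvk phosphorylate mevalonate, Sc5d desaturates sterols just before Dhcr7 acts, and Ggps1 leads away from sterols.

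Hmgcs1 was related to 5 of the 15 enzymes in the same direction, namely Pmvk (r = 0.975, adjusted p = 0.000267), Sc5d (r = 0.961, adjusted p = 0.000288), Mvk, Lbr and Acat2, and to 2, Msmo1 and Cyp51, in the opposite direction. Hsd17b7, Fdps and Mvd, which went with Sqle, were not past the threshold with Hmgcs1 (r of -0.408, -0.381 and -0.459; adjusted p = 0.288, 0.319 and 0.206). Dhcr7 was related to 5 and 6, and Fdft1 to 6 and 1, in the same and the opposite direction. Over all expressed probes the shares were 21.9% and 18.7% for Hmgcs1, 21.1% and 23.8% for Dhcr7, and 18.8% and 15.9% for Fdft1. With loess, consecutive steps could lie on opposite sides. Whether they did so under median centring, where the opposing pairs of the 7 genes were not related, is not given. Sc5d was at -1.28 to -0.32 in mice 4 to 7 and -0.28 to 0.22 in the others, whereas Dhcr7, which acts after it, was higher in mice 4 to 7. Mvk was at -0.93 to -0.36 in mice 4 to 7 and -0.28 to -0.04 in the others. The median r over the 15 enzymes was 0.599 with Hmgcs1, -0.232 with Sqle and -0.129 with Dhcr7, where the median over all expressed probes lay between -0.0299 and 0.0262 for these genes.

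Of 12 genes of sterol sensing and SREBP processing, 2 were related to Sqle in the same and 6 in the opposite direction, where 21.9% and 23.8% of all expressed probes were. Srebf2, the SREBP mostly tied to cholesterol genes, went with Sqle (r = 0.908, adjusted p = 0.000197) and ran from -1.43 in mouse 9 to 1.25 in mouse 4. Srebf1, mostly tied to fatty acid synthesis, went against Sqle (r = -0.911, adjusted p = 0.000254) and with Hmgcs1 (r = 0.899, adjusted p = 0.0008), and ran from -0.69 in mouse 7 to 0.67 in mouse 9. The SREBP protease gene Mbtps2 went with Sqle (r = 0.891) and Nr1h3, which encodes a sterol-activated nuclear receptor, went against it (r = -0.935). Srebf2 and Nr1h3 each had 2 expressed probes and Mbtps2 had 3. Only the brightest is given, and as Fdft1 shows, probes of a gene can oppose each other. Scap was not related to any of the 7 genes and stayed within -0.19 to 0.09.

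Of 14 genes of cholesterol uptake, transport and esterification, all expressed, 9 were related to Sqle in the same and 3 in the opposite direction, and 9 and 2 to Dhcr7. Those with Sqle were led by Npc1 (r = 0.931), which moves cholesterol out of lysosomes, Nceh1 (r = 0.93), which hydrolyses cholesterol esters, Soat1 (r = 0.925), which forms them, and Stard3 (r = 0.919), a sterol transfer protein of late endosomes. Soat1 was at 1.17 to 1.40 in mice 4 to 7 and -0.97 to -0.10 in the others. The 3 against Sqle were Abca1 (r = -0.890, adjusted p = 0.00165), which exports cholesterol, the HDL receptor gene Scarb1 (r = -0.727, adjusted p = 0.0327) and Vldlr, a lipoprotein receptor (r = -0.772, adjusted p = 0.00556). Vldlr was at -1.86 to -0.97 in mice 4 to 7 and -0.52 to 0.07 in the others. Hmgcs1 was related to 3 of the 14 in the same and 8 in the opposite direction. Over all expressed probes the shares were 21.9% and 23.8% for Sqle, 21.1% and 23.8% for Dhcr7, and 21.9% and 18.7% for Hmgcs1.

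**Figure D4:**
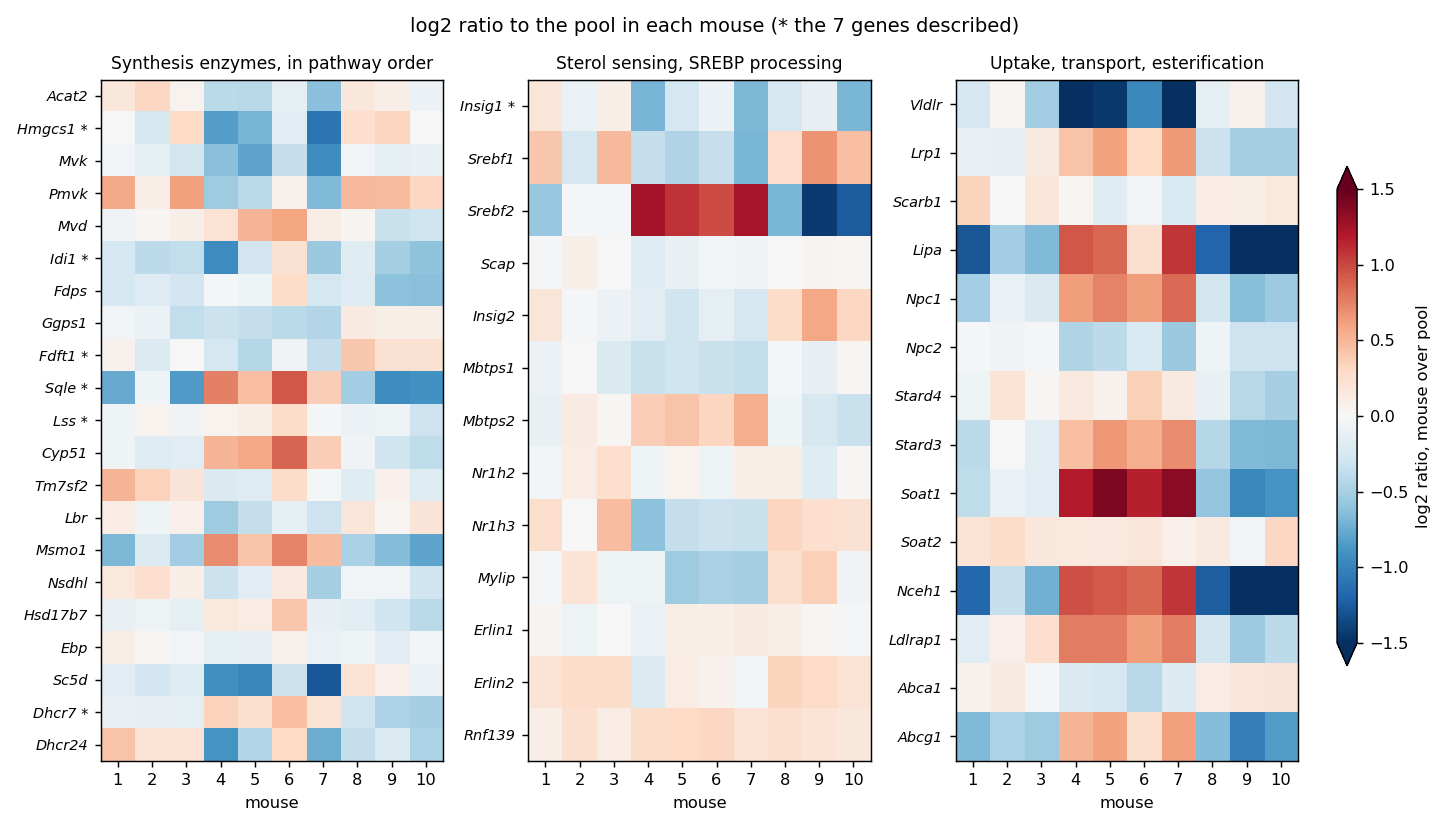
Log2 ratio to the pool in each of the 10 mice (columns) for synthesis enzymes in pathway order, sterol sensing genes and uptake genes (rows, brightest expressed probe; asterisks mark the 7 genes; Fdft1 is the exon-junction probe), on a scale from -1.5 to 1.5. In mice 4 to 7 Sqle, Cyp51, Msmo1, Dhcr7, Srebf2 and Soat1 are red while Hmgcs1, Mvk, Sc5d and Vldlr are blue.

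Genes of fatty acid synthesis went with Hmgcs1. Of 15, 13 were related to it in the same direction and 1, Fads1, in the opposite direction, where 21.9% and 18.7% of all expressed probes were. With Sqle it was 1 and 13, where 21.9% and 23.8% were. Me1, which supplies NADPH, had an r of 0.963 with Hmgcs1 (adjusted p = 0.000288), and Acss2, Pnpla3 and Scd2 had r between 0.926 and 0.931. The mean log2 ratio of the 15 genes was -1.20 to -0.52 in mice 4 to 7 and 0.01 to 0.30 in the others.

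The markers of cell types moved with the same mice. Of the 10 adipocyte markers, 10 were related to Hmgcs1 in the same direction and 10 to Sqle in the opposite direction, with Fabp4, a fatty acid binding protein of adipocytes, at an r of 0.947 with Hmgcs1. Of the 9 macrophage markers, 8 went with Sqle and 8 against Hmgcs1, and the exception in each case was Cd163. Over all expressed probes, 21.9% were related to Hmgcs1 in the same and 18.7% in the opposite direction, and 21.9% and 23.8% to Sqle. The part of these markers in the relations among the cholesterol genes was not tested.

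Some of the 7 genes opposed each other, so a high mean r with all 7 was limited beforehand. The 10 genes outside the set with the highest mean r with the 7 over the 10 mice were Mrps22, Capzb, Klhl25, Dnajc19, Gnptab, Tars, Dusp9, Tsc22d4, Pop4 and Rabepk, with a mean r of 0.401 to 0.433. Mrps22, at the top, had an r from 0.183 to 0.691 with the single genes. Among the 7 genes themselves the mean r of the 21 pairs was 0.103.

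The medians over mice lay below the pool for all 7 genes, from -0.38 for Idi1 to -0.03 for Fdft1. Centring each array on its median instead of loess moved the median of all expressed probes from 0.00 to 0.33 and that of the 7 genes to between 0.16 for Idi1 and 0.51 for Hmgcs1. Relative to all expressed probes Idi1 was then at -0.17, against -0.39 with loess, and Hmgcs1 at 0.18, against -0.09. Fdft1 was at 0.03, against -0.03 with loess, a small shift. The side on which Hmgcs1 and Fdft1 lay therefore depended on the scaling. With the scanner's own ratio, Hmgcs1 was at -0.17, Idi1 at -0.48 and Fdft1 at 0.03 relative to all expressed probes.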

How the data were processed

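Total RNA of eWAT was hybridised on 10 two-colour Agilent 8x60K arrays (mm9 annotation), 2 on each of 5 slides. The authors deposited scanner files whose intensity columns hold mean signal and median local background per spot, from Agilent Feature Extraction 10.7.3.1 per the submitters' processing notes, together with that software's log10 ratio of Cy5 over Cy3. They also deposited a table of log2 values for 30733 spots, with a column median of 8.52 on every array; its columns followed log2 Cy5 (r of 0.994 to 0.999), and how it was normalized is not given in the sources used here. Here, signals were corrected with normexp (offset 50) and normalized by loess within arrays and by Aquantile between them (limma 3.58.1, R 4.3.3); control spots got weight 0 and outlier spots were left out, spots of a probe were averaged, and the brightest expressed probe stood for a gene. Median Cy5 signals were 54.8 to 81.3 per array over backgrounds of 32 to 37, and no spot of the 7 genes was saturated; the number of arrays limits the precision. Of 55681 probes, 27811 were expressed. Correlations had 100000 permutations over 10 mice, or all 720 orders over 6. Steps were tested on simulated data. The 7 genes and all lists (pathway, fatty acid synthesis and cell type markers) were chosen with earlier results of these data known. Named genes were the 7 with all probes, the leading related genes of each list by size of r, and the 10 most alike genes. Alternatives covered background, scaling, filter, probe choice, slide, the first principal component and leaving out mice; 2 choices, the second Fdft1 probe and the spread over the 6 mice, were added after seeing the data. A few pathway genes are not reported here. Promoters came from RefSeq (GRCm38.p6).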

Additional observations from a re-analysis of the deposited data

Results flagged for a closer look

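None of the 8 expressed probes of the 7 genes had a single mouse far from the rest. Of 108 genes in the lists, 5 did, by the gap between the end value and the nearest mouse as a share of the whole range (above Dixon's critical value for 10 mice, which chance passes in about 1 group in 20). Mouse 2 was the highest for the sperm genes Prm2 (gap 0.771) and Prm1 (gap 0.571), for Fads2 (gap 0.756) and for Krt8 (gap 0.512). Mouse 3 was the highest for Cd3e (gap 0.470). Leaving out mouse 2 or mouse 3 left 6 of the 21 pairs of cholesterol genes related.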

How the results depend on the processing

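The count of related pairs among the 7 genes (6 of 21) was 4 under median centring and 3 with the mean of all expressed probes of a gene. Of the 6 pairs, only Sqle with Dhcr7 and Hmgcs1 with Fdft1 were among those related under median centring. The remaining pairs of those 4 are not given. The count was 2 in the deposited table and 1 with slide as a block. It was 0 with the first principal component as a covariate or over the 6 mice, where few probes of the whole array were called. Leaving out each mouse gave 4 to 6. The 108 of 287 relations between pathway genes and the 7 genes (over all expressed probes, 15.9% to 23.8% in each direction for Hmgcs1, Sqle, Fdft1 and Dhcr7 and 0% for the others) became 76 under median centring, 61 with slide as a block and 0 with the first principal component or over the 6 mice, and 97 to 114 without each mouse. The 6 of 8 probes that varied more in Cy5 became 2 without normalization between arrays and 2 over the 6 mice. Under median centring, the median log2 ratio was 0.51 for Hmgcs1, 0.30 for Sqle (from -0.29), 0.36 for Fdft1, 0.16 for Idi1, 0.26 for Dhcr7, 0.22 for Insig1 and 0.31 for Lss. The 4 opposing pairs lost their call under median centring, with r of -0.291 for Hmgcs1 and Sqle, -0.334 for Hmgcs1 and Dhcr7, -0.111 for Sqle and Fdft1, and -0.172 for Fdft1 and Dhcr7. Some relations changed sign. With the first principal component as a covariate, partial r was 0.347 for Hmgcs1 and Sqle, 0.632 for Hmgcs1 and Dhcr7, 0.263 for Sqle and Fdft1, and 0.0639 for Fdft1 and Dhcr7. With the mean of the Fdft1 probes, r was -0.449 for Hmgcs1 and Fdft1, 0.779 for Sqle and Fdft1, and 0.691 for Fdft1 and Dhcr7. With the second Fdft1 probe, these were -0.875, 0.947 and 0.933, each over 2 separate sets of mice. For the other shifts the cause was not tested. No paired analysis was possible because all 10 samples belong to 1 group. The second Fdft1 probe was well above background on 9 arrays in Cy5 and 7 in Cy3.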

Other observations

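Other cell type markers showed which further tissue components moved with Sqle and Hmgcs1. Of 6 endothelial markers, 5 were related to Sqle in the opposite direction and 5 to Hmgcs1 in the same direction, and their mean log2 ratio was -0.65 to -0.40 in mice 4 to 7 and 0.08 to 0.25 in the others. Of 7 mesothelium markers, 6 were related to Sqle in the opposite direction, with a mean of -1.43 to -1.01 in mice 4 to 7 and -0.49 to 0.36 in the others. Of 5 expressed blood markers, 4 went against Sqle, as did 2 of 5 expressed lymphocyte markers. The 8 fibroblast and preadipocyte markers were divided, with 4 related to Sqle in the same and 2 in the opposite direction. None of 3 expressed sperm and epididymis markers was related to Sqle or Hmgcs1. Over all expressed probes, 21.9% were related to Sqle in the same and 23.8% in the opposite direction, and 21.9% and 18.7% to Hmgcs1.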
